A study of Mus musculus with 22 samples.

Results

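The 8 genes described here carry the insulin signal in mouse liver from the receptor to the FOXO transcription factors. They are Insr, Irs1, Irs2, Pik3r1, Akt2, Foxo1, Foxo3 and Socs3, out of 24475 genes in the deposited table. They were picked by name and not by a cutoff on their values, though with earlier results of these data known. All 8 passed the filter on low values (a mean of at least 0.5 RPKM), which left 11590 genes. RPKM divides the reads of a gene by its transcript length and by the size of the library, so levels of different genes are compared here per length.

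The libraries were made from polyadenylated liver RNA of WT mice and of mice labelled Gcg-/-, which lack the gene for glucagon. Each genotype had 3 libraries with no infusion, 4 with glucagon infused at 30 µg/d and 4 with glucagon infused at 150 µg/d, 22 libraries in 6 groups. No treatment is shared by all groups. The sources used here do not give how the Gcg-/- allele was made, the strain, sex and age of the mice, or the length of infusion. They do not say whether a library stands for 1 animal, so the spread behind every p-value is that between these libraries and may be technical. Libraries are named by their number in the labels: WT without infusion 1 to 3, Gcg-/- without infusion 4 to 6, WT at 30 µg/d 7 to 10, Gcg-/- at 30 µg/d 11 to 14, WT at 150 µg/d 15 to 18 and Gcg-/- at 150 µg/d 19 to 22. Gcg itself was listed at 0 in every library, WT included, so it does not check the genotype labels in liver. Depth, worked out from the smallest steps in the RPKM values, was about 11.1 to 17.7 M reads. Libraries 4 and 13, both Gcg-/-, stood apart from the rest in male-biased liver genes, with a mean log2(RPKM + 1) of 4.46 and 5.90 over 12 such genes where the other libraries had 6.57 to 8.30. Some results that use them are also given without them, and the others are given with them only.

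Insulin binds Insr, a receptor tyrosine kinase, which phosphorylates the adaptors Irs1 and Irs2. These recruit phosphoinositide 3-kinase, whose regulatory subunit p85-alpha is made from Pik3r1, and the lipid it produces leads to activation of Akt2, the main Akt kinase of hepatocytes for insulin's metabolic actions. Akt phosphorylates Foxo1 and Foxo3 and so keeps them out of the nucleus, where they otherwise induce genes of glucose production. Glucagon acts in the opposite metabolic direction through cyclic AMP and the factor CREB. Socs3 is induced by cytokines through STAT3, and its product dampens both cytokine receptors and the insulin receptor. Most of this control is by phosphorylation, which RNA levels do not show.

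The members lie on 7 chromosomes of GRCm38: Insr at chr8:3150922-3279649, Irs1 at chr1:82233105-82291439, Irs2 at chr8:10984681-11008929, Pik3r1 at chr13:101680761-101768217, Akt2 at chr7:27591552-27640826, Foxo1 at chr3:52268337-52350109, Foxo3 at chr10:42181845-42276695 and Socs3 at chr11:117966079-117970336. Insr, Irs1, Irs2 and Foxo1, 4 in all, overlap an annotated gene on the opposite strand. Foxo1 and Pik3r1 overlap one on their own strand. The sources used here do not say whether reads were counted by strand, so reads of such neighbours may be included in the values.

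The sequences just before a listed start of Irs1, Irs2 and Socs3 are shown because both adaptor genes held the same 2 short sequences there, and because Socs3 is a gene known to be induced by STAT3. Each is the 250 bases before the start in RefSeq's promoter table on GRCm38.p6, written 5′ to 3′ on the gene's strand. Capitals mark matches to the motifs searched on both strands: the cAMP response element TGACGTCA and its core TGACG, the E-box CACGTG, the insulin response sequence TGTTTTG, the FOXO site GTAAACA and the STAT site TTCNNNGAA. The core is contained in the full element, and where matches overlap their capitals run together. The Socs3 start in that table lies inside the gene's span as given above, so its window is part of the gene and not upstream of it. Lines give Irs1 at chr1:82291440-82291689 (minus strand), Irs2 at chr8:11008930-11009179 (minus strand) and Socs3 at chr11:117969367-117969616 (minus strand).
Irs1: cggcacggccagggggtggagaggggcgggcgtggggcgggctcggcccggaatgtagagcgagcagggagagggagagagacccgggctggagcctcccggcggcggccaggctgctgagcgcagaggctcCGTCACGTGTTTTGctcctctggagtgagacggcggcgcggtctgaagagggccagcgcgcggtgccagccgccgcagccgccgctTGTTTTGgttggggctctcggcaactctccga
Irs2: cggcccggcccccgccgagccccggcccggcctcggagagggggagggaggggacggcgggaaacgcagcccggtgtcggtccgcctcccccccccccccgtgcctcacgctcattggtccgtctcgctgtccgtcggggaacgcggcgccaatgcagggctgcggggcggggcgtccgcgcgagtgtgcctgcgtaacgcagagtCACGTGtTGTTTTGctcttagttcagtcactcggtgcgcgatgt
Socs3: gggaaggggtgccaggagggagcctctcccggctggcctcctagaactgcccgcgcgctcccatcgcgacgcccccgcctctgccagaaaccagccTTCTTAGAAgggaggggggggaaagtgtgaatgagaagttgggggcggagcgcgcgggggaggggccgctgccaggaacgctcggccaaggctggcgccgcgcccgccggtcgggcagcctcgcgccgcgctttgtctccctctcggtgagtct

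In Irs1 an E-box began at position -115 from the start and overlapped an insulin response sequence that began at position -111, with another at position -32 and a core TGACG at position -118. In Irs2 the E-box began at position -44 and the insulin response sequence at position -37. The adaptor promoters shared 2 identical runs of 10 bases, GTCACGTGTT and TGTTTTGCTC. These runs overlapped by 4 bases in Irs1 and by 1 base in Irs2. An E-box was present in 6.021% of all 32851 windows of this length, an insulin response sequence in 5.561%, and both together in 0.295%. The Socs3 window held a single STAT site, at position -154, a motif found in 7.02% of windows and, at position -160, in a window of Akt2. No window of the 7 members with an entry held the full response element (1.546% of all windows) or the FOXO site (3.166%), and the core TGACG (17.765%) was found in windows of Irs1, Akt2, Foxo3 and Pik3r1. Insr had no entry. Such a match is a description of the letters in the window, and no binding was measured.

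Levels differed between the steps of the pathway. From Akt2 through Insr and Pik3r1 to Foxo1 each gene was above the next in at least 20 of the 22 libraries, and the order of the lower members was less fixed. Over the 22 libraries Akt2 was the most abundant member at 32.5 ± 1.45 RPKM (SD, n = 22), above Insr in all 22 libraries. Insr, at 20.006 ± 3.404 RPKM, was above Pik3r1 in 20 libraries, and Pik3r1, at 15.5 ± 1.98 RPKM, was above Foxo1 in 21. Foxo1 (9.18 ± 2.11 RPKM) and Foxo3 (8.999 ± 1.46 RPKM) did not differ beyond their spread, with Foxo1 the higher in 11 of 22 libraries. Socs3 (5.76 ± 3.37 RPKM) was below Foxo3 in 15 libraries and above Irs2 (5.01 ± 2.64 RPKM) in 11, so neither of these neighbours stands clear of the next. Irs1 was the lowest at 2.9995 ± 0.877 RPKM and was below Irs2 in 16 libraries.

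**Figure D1:**
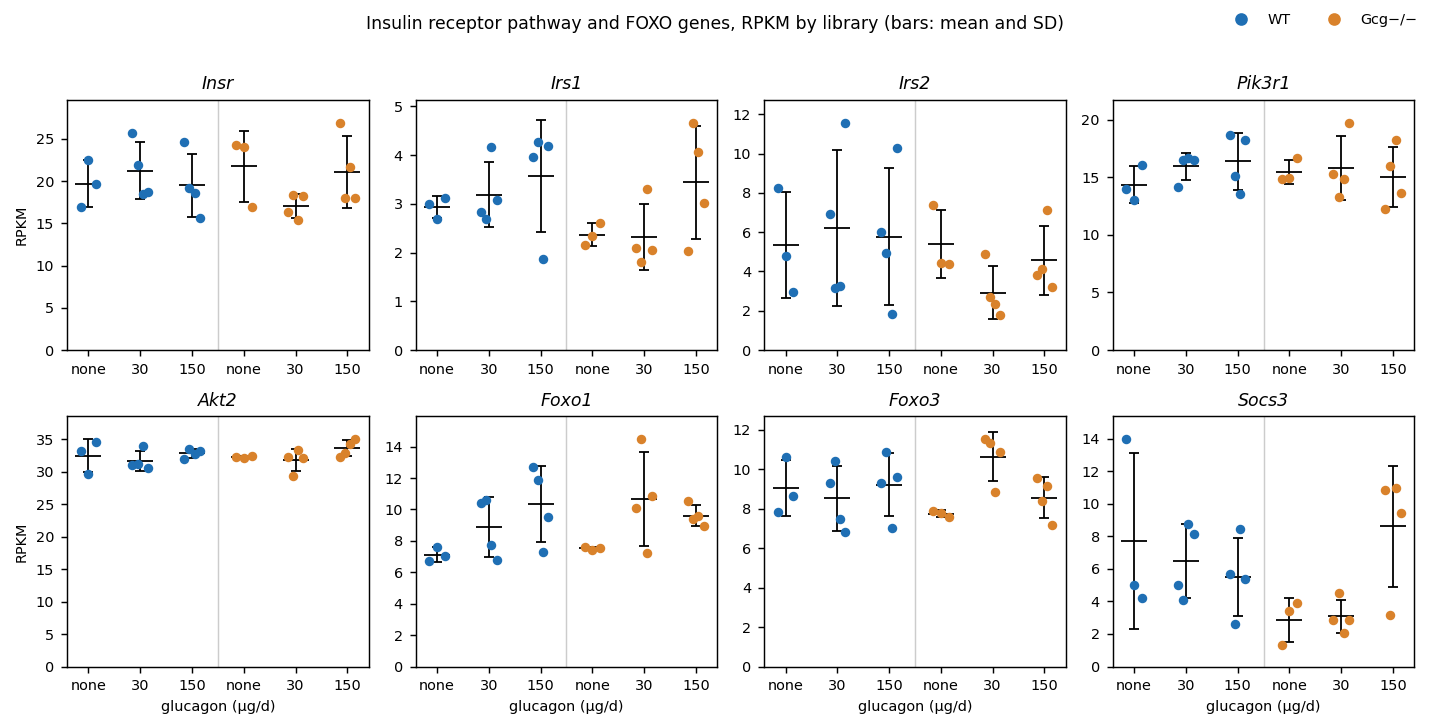
Level of each of the 8 genes in the 22 libraries, by genotype (colour) and infusion in µg/d; points are libraries, bars are the group mean and SD, and the vertical axis is RPKM on a linear scale that starts at 0. Akt2 stays between 29.4 and 35.0 RPKM, while Socs3 runs from 1.35 to 13.97 RPKM and Irs2 from 1.79 to 11.6 RPKM within the same libraries.

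The members also differed in how much they varied between libraries of the same group. Akt2 had a within-group SD of 0.0637 on the log2(RPKM + 1) scale, and 0.233% of the 11590 genes had a smaller one. The median gene had 0.164. Pik3r1 (0.185) and Foxo3 (0.193) lay somewhat above that median, and Insr (0.228), Foxo1 (0.253) and Irs1 (0.296) higher still. At the far end were Socs3 with 0.592 and Irs2 with 0.612, above 96.8% and 96.96% of genes. Between the lowest and the highest library Akt2 differed 1.19-fold, Irs2 6.47-fold and Socs3 10.4-fold. Estimated reads for Akt2 were 1634 to 2704 per library, for Irs2 146 to 1008 and for Socs3 40 to 632, so counting error was largest for Socs3.

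**Figure D2:**
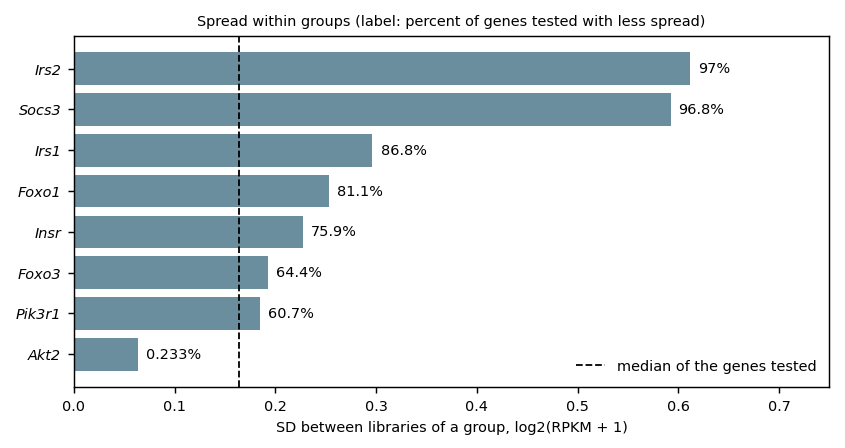
SD between libraries of the same group for each of the 8 genes, on the log2(RPKM + 1) scale (bars), with the percent of tested genes that spread less printed beside each bar; the dashed line is the median of the genes tested, 0.164. The Akt2 bar, at 0.0637, ends well short of that line, and the other 7 bars pass it, up to 0.612 for Irs2.

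Each comparison between groups was made by limma on log2(RPKM + 1) for all 11590 genes, and a gene was called at a Benjamini-Hochberg adjusted p under 0.05. Without infusion, Gcg-/- against WT called 0 of the 8 members where 1.54% of all genes were called, and 1 member had an unadjusted p under 0.05, as did 17.5% of all genes. For 30 µg/d in WT liver it called 0 members (0% of genes) and none at an unadjusted p under 0.05, where 657 genes (5.67%) passed that level. At 150 µg/d in WT liver it called 0 (0.293% of genes), with 1 member at an unadjusted p under 0.05 and 12.1% of genes. Infusion of Gcg-/- mice at 30 µg/d called 0 (0.0863% of genes), with 2 unadjusted (10.1% of genes), and at 150 µg/d it called 0 (2.72% of genes), with 1 unadjusted (18.4% of genes). The response to 150 µg/d taken as the mean of both genotypes called 0 (4.52% of genes), with 1 unadjusted (19.5% of genes), and the genotype difference over all infusion levels called 0 (2.2% of genes), with 0 unadjusted (15.7% of genes). Limma's F test over the 6 groups called 0 members (3.28% of genes), and its adjusted p ran from 0.198 for Socs3 to 0.899 for Pik3r1. By that test 1 member had an unadjusted p under 0.05, and the share of all genes at that level was not worked out. The shares called are small, so 0 of 8 is near what the background gives. The values of each gene and the interval around each difference are therefore given below in the order of the pathway.

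**Figure D3:**
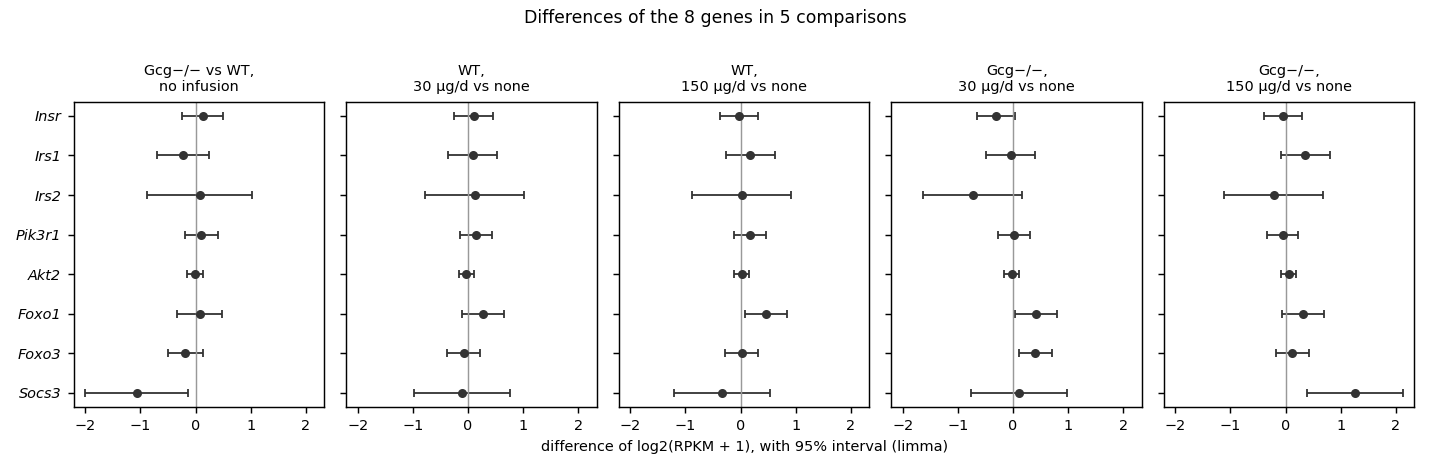
Difference of each of the 8 genes in 5 comparisons, 1 panel per comparison, as limma's log2 fold change on the log2(RPKM + 1) scale with its 95% interval; the vertical line at 0 is no difference. The intervals of Akt2 stay between -0.17 and 0.19, whereas the Socs3 interval at 150 µg/d in Gcg-/- liver runs from 0.39 to 2.13.

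Insr, the receptor, ran from 15.4 to 26.9 RPKM over the libraries, and its group means from 17.1 ± 1.43 RPKM (SD, n = 4, Gcg-/- at 30 µg/d) to 21.8 ± 4.19 RPKM (SD, n = 3, Gcg-/- without infusion). At 30 µg/d the Gcg-/- libraries had 16.4, 18.3, 15.4 and 18.2 RPKM, and the WT libraries 25.7, 21.96, 18.5 and 18.7 RPKM. All Gcg-/- libraries lay below all WT ones at this dose, the highest at 18.3 and the lowest at 18.5 RPKM. The difference between the genotypes there was -0.29 (log2), with a 95% interval of -0.61 to 0.03 and an adjusted p of 0.471 by limma. Groups that did not overlap in this comparison were found for 1 of the 8 members and for 6.32% of all genes. Within Gcg-/- liver, 30 µg/d differed from no infusion by -0.32 (log2, adjusted p = 0.529 by limma), and by -0.19 without libraries 4 and 13 (adjusted p = 0.981). Over the 5 comparisons of an infused or Gcg-/- group with its own control, the 95% intervals for Insr spanned -0.66 to 0.50.

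Irs1, the less abundant adaptor, had 2.99, 2.69 and 3.12 RPKM in WT liver without infusion, 2.84, 2.68, 4.16 and 3.08 RPKM at 30 µg/d, and 3.97, 4.27, 1.87 and 4.18 RPKM at 150 µg/d. Gcg-/- liver had 2.16, 2.34 and 2.61 RPKM without infusion, 2.10, 1.81, 3.30 and 2.06 RPKM at 30 µg/d, and 2.03, 4.66, 4.06 and 3.02 RPKM at 150 µg/d. Without infusion the groups did not overlap, Gcg-/- being the lower, and at 150 µg/d both genotypes held low and high libraries. Irs1 and Socs3, 2 of the 8 members, were without overlap between the uninfused genotypes, against 24.8% of all genes. The difference for Irs1 was -0.22 on the log2 scale (limma, adjusted p = 0.66), from 2.93 ± 0.221 RPKM (SD, n = 3) in WT to 2.37 ± 0.229 RPKM (SD, n = 3) in Gcg-/-, and without libraries 4 and 13 it was -0.18 (adjusted p = 0.818). Its largest difference among the 5 comparisons was 0.36, at 150 µg/d in Gcg-/- liver (limma, adjusted p = 0.377), with intervals over all 5 between -0.70 and 0.81. Without libraries 4 and 13 that difference was 0.32 (limma, adjusted p = 0.599).

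Irs2, the other adaptor, had 8.26, 4.79 and 2.96 RPKM in WT liver without infusion, 6.91, 3.14, 3.28 and 11.6 RPKM at 30 µg/d, and 6.02, 4.96, 1.84 and 10.3 RPKM at 150 µg/d. In Gcg-/- liver it had 7.40, 4.45 and 4.37 RPKM without infusion, 4.89, 2.68, 2.35 and 1.79 RPKM at 30 µg/d, and 3.80, 4.13, 7.14 and 3.22 RPKM at 150 µg/d. Every group held libraries well apart from each other, and the groups overlapped in each of the 5 comparisons. The largest difference, at 30 µg/d in Gcg-/- liver, was -0.73 (log2, limma adjusted p = 0.581), and without libraries 4 and 13 it was -0.46 (adjusted p = 0.983). The intervals of the 5 comparisons spanned -1.63 to 1.03, that is from -67.7% to 104% in RPKM + 1. For a gene this low, that understates the change in RPKM itself. The ratio of Irs1 to Irs2 was above 1 in 6 of 22 libraries, 1 of 6 without infusion and 5 of 16 with it.

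Pik3r1, the regulatory subunit of the lipid kinase, kept to 12.2 to 19.7 RPKM in all libraries and 14.4 to 16.4 RPKM in group means. Its largest difference among the 5 comparisons was 0.17, and the intervals spanned -0.34 to 0.46. Akt2, the kinase below it, had group means between 31.7 ± 1.503 RPKM (SD, n = 4, WT at 30 µg/d) and 33.6 ± 1.23 RPKM (SD, n = 4, Gcg-/- at 150 µg/d). In the uninfused Gcg-/- group its libraries read 32.3, 32.1 and 32.5 RPKM. Its 95% intervals over the 5 comparisons spanned -0.17 to 0.19 on the log2 scale, that is from -10.97% to 14.1% in RPKM + 1. Of the members, Akt2 is thus the one whose RNA level is bounded most narrowly by these data. Foxo1 and Foxo3, the factors that Akt restrains, varied more.

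Foxo1 had 6.69, 7.61 and 7.05 RPKM in WT liver without infusion, 10.4, 10.6, 7.76 and 6.77 RPKM at 30 µg/d, and 12.7, 11.900, 7.28 and 9.51 RPKM at 150 µg/d. Its Gcg-/- values were 7.62, 7.42 and 7.52 RPKM without infusion, 10.1, 14.5, 7.25 and 10.8 RPKM at 30 µg/d, and 10.6, 9.40, 9.57 and 8.92 RPKM at 150 µg/d. The 6 uninfused libraries lay close together, and 13 of the 16 infused libraries were above all of them. The 3 others were 1 library each of WT at 30 µg/d, Gcg-/- at 30 µg/d and WT at 150 µg/d. The count of 13 pools both genotypes and both doses. It was given no test, and the share of all genes with as many was not worked out. In Gcg-/- liver the 150 µg/d group did not overlap the uninfused one, which held for 1 of the 8 members and 13.5% of genes. Among WT libraries 0 members were without overlap from the uninfused group at 30 µg/d (7.49% of genes) or at 150 µg/d (14.5% of genes). Averaged over both genotypes, the difference of 150 µg/d from none was 0.39 ± 0.13 (log2, SE) with a 95% interval of 0.12 to 0.66. Its adjusted p was 0.0970 by limma, so Foxo1 was not called, while 4.52% of genes were. The adjusted p ranged from 0.0292 to 0.179 over the alternative settings, and without library 17, the lowest of the WT group at 150 µg/d, it was 0.0366. By genotype the difference was 0.46 in WT and 0.31 in Gcg-/- liver, and the difference between these responses was -0.14 with an interval of -0.68 to 0.40. At 30 µg/d it was 0.26 in WT and 0.42 in Gcg-/- liver, the latter 0.58 without libraries 4 and 13 (limma, adjusted p = 0.568).

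Foxo3 had 7.85, 10.6 and 8.63 RPKM in WT liver without infusion, 9.32, 10.4, 7.50 and 6.84 RPKM at 30 µg/d, and 9.30, 10.9, 7.05 and 9.59 RPKM at 150 µg/d. Among Gcg-/- libraries it had 7.88, 7.80 and 7.56 RPKM without infusion, 11.5, 11.3, 8.83 and 10.9 RPKM at 30 µg/d, and 9.53, 8.38, 9.15 and 7.16 RPKM at 150 µg/d. In Gcg-/- liver all 4 libraries at 30 µg/d lay above all 3 without infusion, and at 150 µg/d the groups overlapped. Groups without overlap at 30 µg/d in Gcg-/- liver were found for 1 of the 8 members and for 8.76% of genes. The difference there was 0.40 ± 0.14 (log2, SE) with a 95% interval of 0.11 to 0.70 and an adjusted p of 0.341 by limma. Without libraries 4 and 13 it was 0.49 (limma, adjusted p = 0.570).

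Foxo1 and Foxo3 varied together over the libraries. Pearson's r of log2(RPKM + 1) was 0.721 over 22 libraries (permutation p = 0.00025, adjusted p = 0.00206 over 33 relations) and Spearman's rho was 0.721 (permutation, adjusted p = 0.00247). Without the 2 libraries farthest from the median of Foxo1 r was 0.716. With each group's mean taken out it was 0.797, an r given no p, so the relation was also seen inside the groups. Of the 28 pairs of members this was the 1 pair whose adjusted p was under 0.05. Their ratio was not the same in all groups. Foxo1 was below Foxo3 in all 6 uninfused libraries, at ratios of 0.717 to 0.995, and above it in 11 of 16 infused ones. The mean ratio of Foxo1 to Foxo3 was 0.796 ± 0.0704 (SD, n = 3) in uninfused WT and 0.971 ± 0.0224 (SD, n = 3) in the Gcg-/- libraries without infusion. The higher dose gave 1.12 ± 0.167 (SD, n = 4) in WT and 1.13 ± 0.0842 (SD, n = 4) in Gcg-/- liver. The ratios were looked at after the values were known and were given no test.

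**Figure D4:**
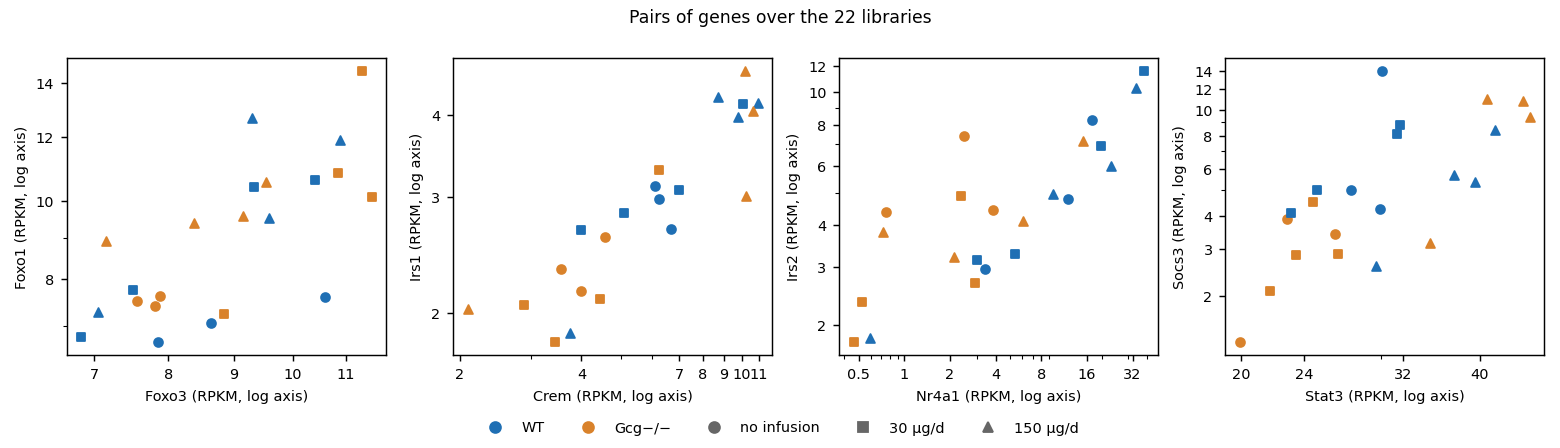
Levels of 4 pairs of genes in the 22 libraries, each point 1 library, with RPKM on log axes, genotype by colour and infusion by symbol. Foxo1 is high where Foxo3 is high, and Irs1, Irs2 and Socs3 are high in most libraries where Crem, Nr4a1 and Stat3 are high.

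Socs3, the feedback inhibitor, had the largest differences of the 8 genes. It had 13.97, 5.003 and 4.23 RPKM in WT liver without infusion, 4.996, 4.08, 8.75 and 8.13 RPKM at 30 µg/d, and 5.69, 2.58, 8.43 and 5.38 RPKM at 150 µg/d. In Gcg-/- liver it had 1.35, 3.41 and 3.89 RPKM without infusion, 2.87, 4.51, 2.09 and 2.86 RPKM at 30 µg/d, and 10.8, 3.17, 10.99 and 9.41 RPKM at 150 µg/d. Without infusion all Gcg-/- libraries lay below all WT ones, and 3 of the 4 Gcg-/- libraries at 150 µg/d lay above every other Gcg-/- library. The fourth, library 20, was within the range of the uninfused group.

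Comparing 150 µg/d with no infusion in Gcg-/- liver, the Socs3 difference was 1.26 ± 0.42 (log2, SE), from 2.88 ± 1.35 RPKM (SD, n = 3) to 8.61 ± 3.69 RPKM (SD, n = 4). Its 95% interval was 0.39 to 2.13 and its adjusted p 0.110 by limma, so it was not called. Over the alternative settings the adjusted p ranged from 0.0405 to 0.403. Without library 20 the difference was 1.62 with an adjusted p of 0.0405 by limma, and without libraries 4 and 13 it was 0.93 with an adjusted p of 0.388. Between the uninfused genotypes the Socs3 difference was -1.07 ± 0.44 (log2, SE; adjusted p = 0.217), with an interval of -2.001 to -0.14, and without libraries 4 and 13 it was -0.74 (adjusted p = 0.546). In WT liver the difference of 150 µg/d from none was -0.33. The difference between the genotypes in the response to 150 µg/d was 1.60 ± 0.59 (log2, SE; limma, adjusted p = 0.367), in a comparison that called 0% of genes and had 1187 at an unadjusted p under 0.05, Socs3 among them.

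Markers of non-parenchymal cells differed between the same groups. Of 10 endothelial markers, 5 rose in uninfused Gcg-/- liver against WT (Pecam1, Cdh5, Stab2, Lyve1 and Tek), and 4 fell at 150 µg/d in Gcg-/- liver (Pecam1, Cdh5, Tek and Tie1). Without libraries 4 and 13, none of the 5 rises and 1 of the 4 falls, that of Tek, was called. Their summed level was 68.4 to 77.6 RPKM in uninfused WT, 93.1 to 108 RPKM in uninfused Gcg-/- and 71.3 to 83.8 RPKM in Gcg-/- liver at 150 µg/d. The summed level of 10 Kupffer cell and macrophage markers, none of them called in these comparisons, was 176 to 235, 275 to 282 and 170 to 293 RPKM in the same groups. Neutrophil markers summed to 3.54 to 6.61, 3.74 to 8.33 and 2.81 to 15.8 RPKM. Stellate cell and fibroblast markers summed to 90.2 to 101, 125 to 128 and 123 to 131 RPKM, so their sum stayed high at 150 µg/d. Cholangiocyte markers summed to 16.4 to 32.8, 60.3 to 177 and 23.0 to 98.8 RPKM. No stellate or cholangiocyte marker tested was called in these comparisons. The part of these cells in the Socs3 values was not tested, and in bulk liver fewer cells of a type and less RNA per cell cannot be told apart. The hepatocyte markers in the table, 5 of the 6 listed, summed to 30104 RPKM or more in each library of these 3 groups, and Ins1, Ins2, Cpa1, Prss1 and Lep, which mark pancreas and fat, were listed at 0 in every library.

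Genes that act with Socs3 gave called differences. Stat3, which transmits cytokine signals and induces Socs3, rose at 150 µg/d in Gcg-/- liver by 0.83 ± 0.13 (log2, SE; limma, adjusted p = 0.00373), from 23.0 ± 3.16 RPKM (SD, n = 3) to 41.8 ± 5.34 RPKM (SD, n = 4). That call was lost when the 2 groups were fitted alone (adjusted p = 0.118). As the mean of both genotypes Stat3 rose by 0.58 (limma, adjusted p = 0.00292), and it was called in all 23 alternatives run there. Of the 14 tested genes of the SOCS family and of JAK-STAT3 signalling, Stat3 was the 1 that rose and Socs7 the 1 that fell in that mean, the call of Socs7 being absent in 18 of 23 alternatives, and the median difference of the list was -0.03, as for all genes (-0.03). In WT liver alone, 150 µg/d called 0 of these 14 genes, Stat3 included, and 0.293% of all genes. Of 11 acute phase genes, liver genes that STAT3 induces in inflammation, Orm2 was the 1 called, with a rise of 4.01 at 150 µg/d in Gcg-/- liver (limma, adjusted p = 0.0494). It was not called in 10 of 16 alternatives, those without library 4, 5, 6, 19, 21 or 22 among them (limma, adjusted p up to 0.206). Leaving out libraries 4 and 13 together ended the call too. The acute phase genes had a median difference of 1.24 in that comparison, with all genes at -0.04 and single genes from -1.40 to 4.62. The summed RPKM of these genes was 39820, 10551, 27246 and 34085 in libraries 19 to 22, and library 20, low in this sum, was also the low one in Socs3.

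Over the 22 libraries Socs3 varied with the mean log2 level of the acute phase genes. Pearson's r was 0.805 (permutation p = 1e-05, the smallest that 100000 permutations can give; adjusted p = 0.00033) and Spearman's rho was 0.762. Without the 2 farthest libraries r was 0.811, and with group means taken out it was 0.773. With Stat3 alone, Socs3 gave an r of 0.724 (permutation, adjusted p = 0.00154), a rho of 0.756, 0.758 without the 2 farthest libraries and 0.769 inside the groups. Uninfused WT library 1 held the highest Socs3 of all, 13.97 RPKM, and 20544 RPKM of acute phase genes, the most of its group. Other libraries did not match so closely. Libraries 9 and 10, both WT at 30 µg/d, had 8.75 and 8.13 RPKM of Socs3 but 11642 and 26202 RPKM of acute phase genes. These relations, and those with the cAMP list below, were chosen after the values were seen.

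The adaptors varied with genes that glucagon induces through cAMP and CREB. The mean log2 level was taken over all 13 such genes on the list, of which 11 passed the filter on low values. Against it, Irs2 gave an r of 0.807 (permutation, adjusted p = 0.00049), a rho of 0.787, 0.723 without the 2 farthest libraries and 0.856 inside the groups. For Irs1 the values were an r of 0.624 (permutation, adjusted p = 0.0139), a rho of 0.566 (adjusted p = 0.0444), 0.676 without the 2 farthest libraries and 0.504 inside the groups. For each member the genes most like it were sought among 9969 genes with a mean of at least 1 RPKM, by the highest positive r. Genes with a Gm, Rik, LOC or accession name as symbol were left out. Within that set the gene most like Irs1 was Crem, a cAMP-induced member of the CREB family, with an r of 0.904, followed by Etnk1 (0.895) and Zfpm1 (0.877). The genes most like Irs2 were Btg2 (0.851), Ppp1r3g (0.848) and Nr4a1 (0.824), an immediate early nuclear receptor on the cAMP list. Being the highest of many, these r values are descriptions and carry no p, and all of them are over the same libraries.

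In that list Pck1, which makes the rate-limiting enzyme of gluconeogenesis, and Tat, which breaks down tyrosine, were the 2 of 11 that rose at 150 µg/d in Gcg-/- liver, by 1.62 and 2.004 (log2; limma, adjusted p = 0.0161 for each). Fitting the 2 groups alone ended both calls (limma, adjusted p of 0.0999 and 0.118), as did leaving out library 5 or 21. The call of Tat was also lost without library 4, and without libraries 4 and 13 together. In the mean of both genotypes Pck1 and Tat were called in all 23 alternatives. For WT liver alone, 150 µg/d called 0 of the 11 genes, Pck1 and Tat included, and 0.293% of all genes. In Gcg-/- liver Pck1 went from 520 ± 158 RPKM without infusion (SD, n = 3) to 1587 ± 385 RPKM at 150 µg/d (SD, n = 4). The list's median difference was 0.45 in that comparison, with all genes at -0.04, and 0.32 in the mean of both genotypes, with all genes at -0.03. Over all infusion levels Pde4b, a cAMP phosphodiesterase, differed by -1.27 between Gcg-/- and WT liver (log2; limma, adjusted p = 0.00672), the 1 of 11 called. Irs1 and Irs2 were not called in these comparisons.

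The nearest genes to the other members were of mixed kinds. Those of Foxo1 were Ell2 (0.843), Rhobtb1 (0.794) and Lpin1 (0.782), the last a regulator of fat metabolism. Those of Foxo3 were Shmt1 (0.779), Zbtb16 (0.774) and Cep85l (0.737). Socs3 was most like Slc37a1 (0.837), Tifa (0.830) and Clu (0.823), the gene of the secreted protein clusterin. Among the genes most like Akt2 were Rps10 (0.746) and Rps28 (0.742), which make ribosomal proteins. Insr was most like Pus10 (0.873), Shprh (0.858) and Fbxl17 (0.832), and Pik3r1 like Safb (0.755), Dna2 (0.741) and Prr14l (0.735).

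Targets of the pathway were called in some comparisons. Of 20 genes known to be induced by FOXO1, Gadd45a, a stress-response gene, was the 1 that rose in uninfused Gcg-/- liver (1.54% of all genes were called there), from 4.69 ± 1.23 to 15.3 ± 7.52 RPKM (SD, n = 3 each; log2 difference 1.45, limma adjusted p = 0.0422). The call was absent in 9 of 15 alternatives, among them those without library 1, 2, 3, 4 or 5 (limma, adjusted p up to 0.213). It was absent without libraries 4 and 13 together as well. At 150 µg/d in Gcg-/- liver 3 of the 20 were called by limma, where 2.72% of all genes were: Pck1 rose and 2 fell. Gadd45a fell by 1.47 (limma, adjusted p = 0.0226), a call lost without library 4, 21 or 22. Mttp, needed for lipoprotein assembly, fell by 0.45 (limma, adjusted p = 0.0299), a call lost without library 4, 5, 21 or 22. Both calls were also lost without libraries 4 and 13 together and with only the groups compared, and that of Mttp under median-of-ratios scaling. The median of these 20 genes was -0.21 in that comparison, with all genes at -0.04. Foxo1 and the mean log2 level of these genes gave an r of 0.364 over the 22 libraries (permutation, adjusted p = 0.315), 0.281 without the 2 farthest libraries and 0.452 inside the groups.

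Igfbp1, the classic liver target of FOXO1 that insulin represses, read 35.7 ± 30.3 RPKM (SD, n = 3) in uninfused WT and 160 ± 127 RPKM (SD, n = 3) in uninfused Gcg-/- liver. The groups overlapped, and the difference of 2.22 had an adjusted p of 0.382 by limma and an interval of -0.42 to 4.87. G6pc, the last step of glucose release, read 161 ± 41.8 RPKM (SD, n = 3) in uninfused WT and 250 ± 83.9 RPKM (SD, n = 3) in uninfused Gcg-/- liver, and was not called (adjusted p = 0.697). Of 8 genes induced by insulin, 0 were called by limma in any of the 7 main comparisons. Srebf1, the lipogenic factor, differed by -0.42 at 150 µg/d in Gcg-/- liver, with an interval of -1.06 to 0.22.

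Of the 29 other genes of insulin signalling, from Igf1r to the mTOR complexes, Eif4ebp1 was the 1 called in the 7 main comparisons. This target of mTOR, which restrains translation, rose at 150 µg/d as the mean of both genotypes by 0.37 (log2; limma, adjusted p = 0.0268), in a comparison that called 4.52% of all genes. It was not called in 8 of 23 alternatives, those without library 2, 3, 4, 15, 21 or 22 among them (limma, adjusted p up to 0.0917). Leaving out libraries 4 and 13 together ended the call too. Of 16 inhibitors of the pathway, Trib3, a pseudokinase that binds Akt, was the 1 called. It fell by 0.92 in that comparison (limma, adjusted p = 0.0160; called in all 23 alternatives), from 4.83 ± 0.342 to 1.48 ± 0.497 RPKM in WT (SD, n = 3 and 4) and from 2.81 ± 1.28 to 1.51 ± 0.716 RPKM in Gcg-/- liver (SD, n = 3 and 4). In that comparison the median difference was -0.02 for the 29 genes, -0.01 for the 16 inhibitors, 0.06 for the 8 members and -0.03 for all genes. The comparisons with uninfused liver share those libraries, so their values are not independent of each other.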

How the data were processed

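Polyadenylated liver RNA was sequenced from strand-specific libraries, per the labels' protocols. CASAVA 1.8.2, FastQC and GRCm38 are listed in the submitters' processing notes. No aligner, counting tool or annotation is given in the sources used here. The deposited RPKM values were made by the authors, 1 column per library, with no pooling. They are not counts, so no count test was used. Depth was estimated from the steps between low values of 3984 genes with 1 transcript: 65.8 to 70.9% came out whole within 0.1 of a read, for 11.1 to 17.7 M reads per library (median 13.7 M).

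Groups came from the titles. Limma 3.58.1 in R 4.3.3 was fitted with a mean-variance trend to log2(RPKM + 1) of 11590 genes with a mean of at least 0.5 RPKM, with 1 mean for each of the 6 groups (16 residual degrees of freedom) and 13 contrasts. P-values were adjusted by Benjamini and Hochberg over all genes, and intervals are 95%. Fold changes on this scale understate those of low genes. The fit was tested on simulated data. Relations were computed on log2(RPKM + 1) with two-sided permutation tests (100000 permutations, SciPy 1.17.1), 33 in all. Values were permuted over all libraries without regard to group, so these p-values also take in differences between groups. The r values inside the groups were given no p. Promoters and coordinates are RefSeq's on GRCm38.p6, and genes overlapping the members are from GENCODE on GRCm38.

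The members and gene lists were chosen with earlier results of these data known. Named are all 8 members, from each list up to 4 called genes with the smallest adjusted p, Igfbp1, G6pc, Pck1 and Srebf1 always, and for each member the 3 genes with the highest r; some genes that this rule names are not reported here. The called endothelial markers are named in full, beyond that rule. Lists overlap: Pck1, G6pc and Ppargc1a are on both the FOXO1 and the cAMP list.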

Additional observations from a re-analysis of the deposited data

Results flagged for a closer look

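In 2 of the 32 groups of 4 libraries examined, 1 library lay far from the other 3, and chance alone flags about 1 group in 20. Irs1 in WT liver at 150 µg/d was 1.87 RPKM in library 17, where the other libraries had 3.97 to 4.27 RPKM. Pik3r1 in WT liver at 30 µg/d was 14.2 RPKM in library 7, where the others had 16.5 to 16.6 RPKM. Library 17 also had the lowest Irs2 (1.84 RPKM), Foxo1 (7.28 RPKM) and Foxo3 (7.05 RPKM) of its group and the highest Socs3 (8.43 RPKM). Its acute phase genes summed to 42078 RPKM, the most of the 22 libraries.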

How the results depend on the processing

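No paired analysis was possible because the numbers of the libraries, 1 to 22, are unique and nothing in the labels pairs them. The alternatives were pseudocounts of 0.1 and 0.5, a filter at a mean of 2 RPKM or none at all, scaling by the median of ratios, quantile normalization, array weights, only the groups compared (which could not be fitted apart for the genotype difference over all infusion levels, since it uses every group), leaving out libraries 4 and 13, and leaving out each library in turn. Alternatives for the genes outside the 8 members were chosen after seeing the data. The count of members called was 0 in all 7 comparisons, and it became 1 in 4 cases. For 150 µg/d as the mean of both genotypes it was 1 (Foxo1) with array weights and with only the groups compared, and 0 to 1 when single libraries were left out (Foxo1 without library 17). For 150 µg/d in Gcg-/- liver it was 0 to 1 when single libraries were left out (Socs3 without library 20).

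Of the 56 member differences, 31 kept their sign in every alternative and 25 changed it in at least 1; the largest of these was 0.33 in size on the log2 scale. Under a pseudocount of 0.1 Irs2 at 150 µg/d in WT became -0.00126. Under median-of-ratios scaling Akt2 at 30 µg/d in Gcg-/- became 0.0118, and Insr at 150 µg/d 0.00646 in Gcg-/- and 0.00141 in the mean of both genotypes. Under quantile normalization Akt2 became 0.0467 between uninfused genotypes and 0.00285 at 30 µg/d in WT, Insr 0.00948 at 150 µg/d in WT, and Irs1 0.0245 at 30 µg/d in Gcg-/-. With array weights Socs3 at 30 µg/d in WT became 0.0252, Pik3r1 at 150 µg/d in Gcg-/- 0.00284, Irs2 at 150 µg/d in the mean of both 0.123, and Foxo3 over all infusion levels -0.0233. Without libraries 4 and 13 Irs2 became -0.141 between uninfused genotypes, Socs3 -0.0953 at 30 µg/d in Gcg-/-, Insr 0.0423 at 150 µg/d in Gcg-/- and 0.00958 in the mean of both, Irs2 0.00784 in that mean, and Pik3r1 0.00267 over all infusion levels. The cause of these changes was not tested.

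Leaving out single libraries gave these ranges where a sign changed. Akt2 ran from -0.0433 to 0.0635 (150 µg/d in WT), -0.0461 to 0.0126 (30 µg/d in Gcg-/-), -0.0941 to 0.0127 (30 µg/d in WT), -0.0660 to 0.0408 (uninfused genotypes) and -0.00956 to 0.0260 (genotypes over all infusion levels). Foxo3 ran from -0.0650 to 0.131 (150 µg/d in WT), -0.174 to 0.0283 (30 µg/d in WT) and -0.0288 to 0.0445 (genotypes overall). Insr ran from -0.207 to 0.0423 (150 µg/d in Gcg-/-), -0.136 to 0.0740 (150 µg/d in WT), -0.115 to 0.0154 (mean of both), -0.00229 to 0.195 (30 µg/d in WT) and -0.0569 to 0.0370 (genotypes overall). Irs1 ran from -0.172 to 0.0333 (30 µg/d in Gcg-/-) and -0.0237 to 0.139 (30 µg/d in WT). Irs2 ran from -0.279 to 0.385 (150 µg/d in WT), -0.248 to 0.0842 (mean of both), -0.199 to 0.437 (30 µg/d in WT) and -0.225 to 0.388 (uninfused genotypes). Pik3r1 ran from -0.147 to 0.0326 (150 µg/d in Gcg-/-), -0.0936 to 0.0864 (30 µg/d in Gcg-/-) and -0.0492 to 0.0154 (genotypes overall). Socs3 ran from -0.621 to 0.138 (150 µg/d in WT), -0.218 to 0.312 (30 µg/d in Gcg-/-) and -0.394 to 0.365 (30 µg/d in WT).

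Counts over all genes moved more. At 150 µg/d in Gcg-/- liver 315 genes were called, 770 with array weights, 1 with only the groups compared and 61 to 585 without single libraries. Between uninfused genotypes 179 were called, 945 with array weights, 22 without libraries 4 and 13, and 9 to 294 without single libraries. For 150 µg/d in WT 34 were called, 438 with array weights, 8 with a pseudocount of 0.1, 17 with no filter, and 0 to 48 without single libraries. Depth limits Socs3 most, which rests on as few as 40 estimated reads.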
